A study of Homo sapiens with 2 samples.

Results

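The MEF2 family in these data consists of the chromatin interactions of MEF2A, MEF2B, MEF2C and MEF2D in t(17;19)-positive leukemia cells, with the MEF2C locus described bin by bin. An interaction belongs to a gene if either of its 5-kb bins overlaps the gene body or the 10 kb on each side of it (GENCODE release 44, hg38). The rule gave 99 of 49245 listed interactions, of which 59 belong to MEF2C, 30 to MEF2A, 10 to MEF2D and 0 to MEF2B. The data are TCF3::HLF-HiChIP from HAL-01, a cell line of B cell acute lymphoblastic leukemia (ALL) that carries the t(17;19) translocation and so makes the fusion transcription factor TCF3::HLF. The cells stably expressed Cas9GFP, carried a knockout of wt-TCF3 obtained as a clone, and were immunoprecipitated with an antibody against E2A, the other name of TCF3, so that the antibody meets the fusion protein. There were 2 biological replicates of 1 condition, which the authors merged before calling, and no other cells or untreated counterpart enter the list. The list holds no expression values, so neither the cell type nor the knockout could be checked in it. The replicates cannot be separated, so no difference below was tested, and each contact count carries an exact Poisson 95% interval that covers counting error only.

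MEF2 proteins are MADS-box transcription factors. Histone deacetylases of class IIa hold them in a repressed state, and calcium and MAP kinase signaling releases and activates them. MEF2C is the member best known from blood, where it acts in lymphoid and myeloid progenitors, and MEF2D is a fusion partner in a subtype of B-ALL. HiChIP joins DNA ends that lie close together on the chromatin pulled down with a protein, so a contact count is the number of read pairs that join a pair of bins. The fusion protein binds DNA through its HLF part, a basic leucine zipper that recognizes the 8-base HLF motif, searched here as TTACGTAA or TTATGTAA on both strands.

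The first sequences shown are those at the element the study targets as the MEF2C enhancer. Guides E.1 and E.2 both cover 1 HLF motif, and guide E.3 lies beside it. Their spacers match chr5:88825103-88825122 on the minus strand (PAM GGG), chr5:88825104-88825123 on the minus strand (PAM TGG) and chr5:88825164-88825183 on the plus strand (PAM AGG). The region between the primers that the study used for ChIP-qPCR at this enhancer is chr5:88825074-88825200 (hg38, plus strand, 127 bases). It lies in the body of MEF2C and overlaps none of its annotated exons. Exons of other genes were not searched. Capitals mark the HLF motif, which reads TTACATAA on the strand of E.1 and E.2.
Guide E.1: tagcaTTACATAAtacatgt
Guide E.2: ttagcaTTACATAAtacatg
Guide E.3: tcaaagttcttggaacagga
MEF2C enhancer, ChIP-qPCR region: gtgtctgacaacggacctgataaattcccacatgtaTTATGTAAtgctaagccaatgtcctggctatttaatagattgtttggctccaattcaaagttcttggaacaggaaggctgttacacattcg

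MEF2C (ENSG00000081189.17) lies at chr5:88717117-88904257 on the minus strand, so that upstream of the gene means higher coordinates. Its 187 kb hold the starts of 57 annotated transcripts in 14 bins. The 59 interactions gave 28.5 per 100 kb of the gene with its flanks. This places MEF2C at rank 42 of 19962 protein-coding genes by number of interactions and at rank 388 by number per 100 kb. The median protein-coding gene had 1 interaction, the 90th percentile was 10, and 64.5% of these genes had any. The contact counts of MEF2C ranged from 13 over a median of 23 to 322, and the distances from 60 kb over a median of 460 kb to 2520 kb. Of the 59 partners, 39 lay upstream of the gene, 12 downstream and 8 within it or its flanks. These 8 interactions are 13.6% of its total, while 15.3% of the whole list had both bins in the same protein-coding gene or 10 kb around it.

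**Figure D1:**
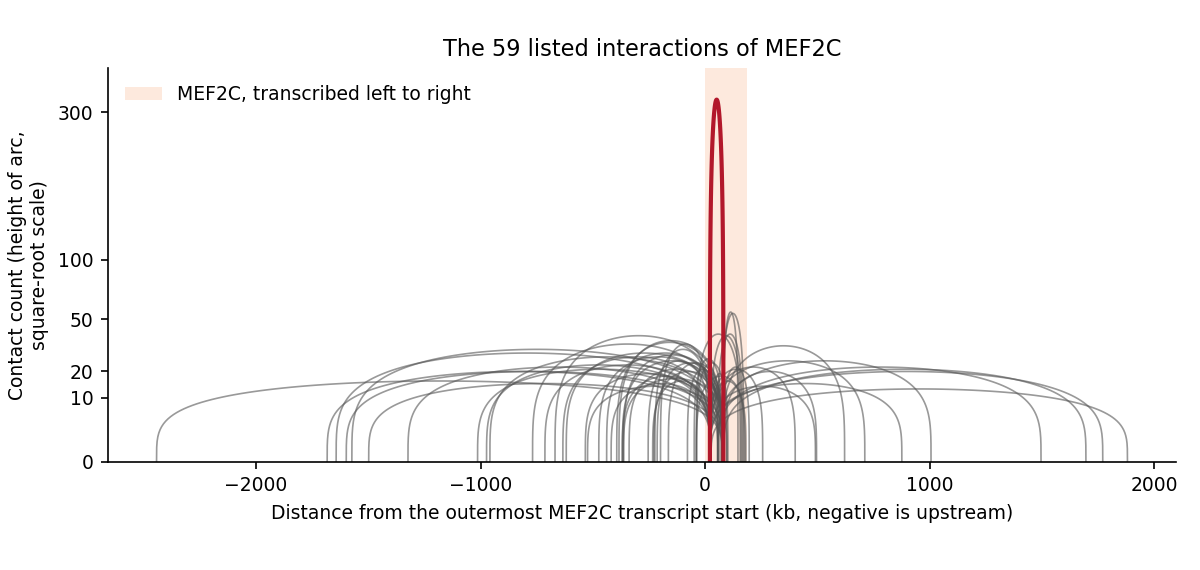
Each arc joins the centers of the 2 bins of a MEF2C interaction, and its height is the contact count on a square-root scale. The horizontal axis is the distance in kb from the outermost transcript start, with upstream to the left. The interaction of 322 contacts (red) lies inside the gene (shaded), and all other listed interactions reach 55 contacts or fewer. Other pairs of a merged group are not drawn.

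Along the gene, interactions were gathered in few places. Of the 42 bins in the window, 16 anchored an interaction, counted by the bin pair of each line in the list. The bin chr5:88825001-88830000, which holds the HLF motif of the guides and 5 MEF2C transcript starts, had 16 interactions, at rank 218 of 53535 anchor bins in the list. It is called the enhancer bin here. The bin next to it, chr5:88820001-88825000, holds 7 transcript starts and had 10 interactions, and is called the border bin. About 60 kb upstream, the promoter bin chr5:88880001-88885000, with 17 MEF2C transcript starts, had 13 interactions, and its neighbor chr5:88875001-88880000, with 2 starts, had 10. The fifth bin, chr5:88845001-88850000, contains no transcript start and had 6. These 5 bins took part in 54 of the 59 interactions, and the other 11 anchor bins had 1 or 2 each. Across the list, 2.10% of anchor bins had 10 or more interactions, and MEF2C had 4 of that kind. By that count, 9 of the 14 start bins anchored an interaction. Of the others, chr5:88885001-88890000 with 6 transcript starts lies at the edge of the bins that the authors merged with the strongest MEF2C interaction. The bin of the outermost start, chr5:88900001-88905000 with 6 transcript starts, had none listed.

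The strongest MEF2C interaction joined the border bin and the promoter bin over 60 kb with 322 contacts (95% interval 288 to 359). It was the highest of the 1048 listed interactions at that distance, whose median was 27, and so stood 11.9 times above the median. In the whole list it had rank 3 by contact count and rank 3 by the ratio to the median of its distance. The second listed MEF2C interaction had 55 contacts (41.4 to 71.6), so the intervals do not overlap and the ratio of the counts was 5.85. The authors merged 11 significant bin pairs out of 20 into the group of this interaction, which spans chr5:88810001-88835000 and chr5:88870001-88890000. The summed contact count (sumCC) of that group was 1154, so the other 10 pairs added 832 contacts, 83.2 each on average. None of these pairs has a line of its own, so 55 is not the next count among bin pairs at the locus. The range of the group covers the enhancer bin and both bins at the promoter. Its P value was listed as 0, as for 3 interactions in the list, which says only that it was too small for the caller to write.

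The border bin holds no exact HLF motif. The motif of guides E.1 and E.2 starts 109 bases past the border, inside the enhancer bin. The pair of the enhancer bin and the promoter bin has no line of its own in the list. It lies within the range of the merged group, and the list does not tell which pairs of the group were significant. The promoter bin holds 1 HLF motif, which ends 29 bases before the end of the bin. The RefSeq transcript starts of that bin (GRCh38.p14) lie 58.1 kb and 59.4 kb from the motif of the guides. Other RefSeq starts of MEF2C lie nearer, at 0.766 kb and 1.18 kb in the border bin and at 2.08 kb in the enhancer bin. The neighbor of the promoter bin holds 1 motif and the bin at chr5:88845001 holds 2. Each is shown with 20 bases on each side, 5′ to 3′ on the strand of the motif, with the motif in capitals.
Promoter bin, chr5:88884944-88884991, minus strand: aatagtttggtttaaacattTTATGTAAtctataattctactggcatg
Bin beside the promoter, chr5:88879264-88879311, plus strand: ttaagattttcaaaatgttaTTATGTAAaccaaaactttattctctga
Bin with 6 interactions, chr5:88845676-88845723, minus strand: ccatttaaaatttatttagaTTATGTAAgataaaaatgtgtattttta
Bin with 6 interactions, chr5:88848330-88848377, plus strand: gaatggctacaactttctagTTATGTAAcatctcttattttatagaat

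Apart from this interaction, the contact counts of MEF2C were close to those of other pairs at like distances. The median ratio to the median of the distance was 1.0, with 29 interactions above it and 30 at or below it. A contact count over 2 times that median occurred in 3 of the 59 interactions, and in 2.89% of the list. The 2 besides the strongest both ran inside the gene toward its 3′ end. The pair of chr5:88755001-88760000 with the border bin had 55 contacts over 65 kb, 2.12 times the median. The pair of chr5:88730001-88735000, which holds a MEF2C transcript start, with the enhancer bin had 54 contacts (40.6 to 70.5) over 95 kb, 2.08 times the median. Both merged groups covered the border bin and the enhancer bin together. The 3′ bin of the first pair held 4 HLF motifs, 1 of them the TTACGTAA form.
chr5:88755844-88755891, plus strand: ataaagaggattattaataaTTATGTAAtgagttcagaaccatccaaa
chr5:88756538-88756585, plus strand: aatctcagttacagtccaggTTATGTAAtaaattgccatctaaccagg
chr5:88758418-88758465, plus strand: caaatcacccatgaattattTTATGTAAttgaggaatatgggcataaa
chr5:88758852-88758899, plus strand: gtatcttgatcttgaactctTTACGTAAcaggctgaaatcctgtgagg

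**Figure D2:**
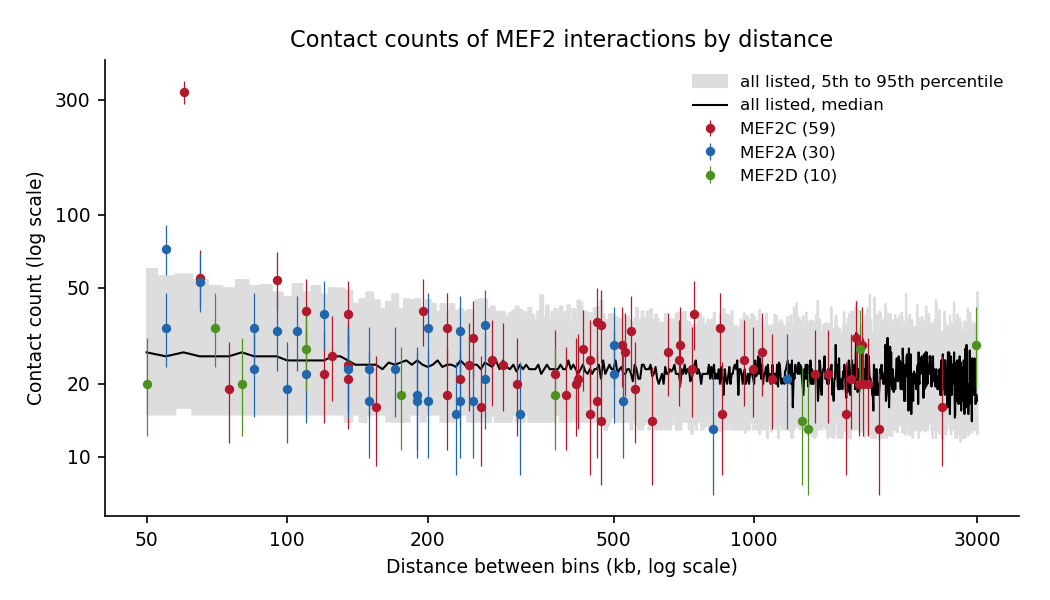
Contact counts of the 59 MEF2C, 30 MEF2A and 10 MEF2D interactions against the distance between their bins, both on log scales. Bars are exact Poisson 95% intervals, and the line and gray band are the median and the 5th to 95th percentile of all 49245 listed interactions at each distance. The MEF2C interaction of 322 contacts lies far above the band, and most others lie within it.

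Other contacts inside MEF2C also joined its 3′ part to the leading bins. The bin chr5:88735001-88740000 met the bin with 6 interactions with 40 contacts (28.6 to 54.5), and chr5:88740001-88745000 met the bin beside the promoter with 39 (27.7 to 53.3). The remaining 3 were weaker. The enhancer bin had 22 contacts with chr5:88705001-88710000, in the flank past the 3′ end of the gene. The start bin chr5:88800001-88805000 had 19 with the bin beside the promoter, and the start bin chr5:88725001-88730000 had 16 with the promoter bin. With counts this low the intervals run from 9.15 to 33.3 and overlap one another.

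The enhancer bin reached mostly upstream. Of its 16 interactions, 13 went upstream, 1 downstream and 2 stayed within the gene or its flanks. The largest of the 13 was with chr5:89570001-89575000, between genes and 745 kb away, with 39 contacts (27.7 to 53.3). It was followed by chr5:89285001-89290000 and chr5:89295001-89300000 in MEF2C-AS1, a long noncoding RNA gene that runs upstream from the MEF2C promoter region, with 36 (25.2 to 49.8) and 35 contacts. The first of these belongs to a merged group of 4 significant pairs with a sumCC of 111, which also holds the pair with chr5:89270001-89275000 at 25 contacts. Partners in MEF2C-AS1 further included bins starting at 88950001 and 89115001, with 26 and 24 contacts. Beyond them lay a bin in the noncoding gene LINC02161 at 845 kb with 34 contacts, a bin between genes at 695 kb with 29, and a bin in an unnamed gene (ENSG00000214942) at 1090 kb with 21. These partners spread along the region upstream without 1 of them standing out by its interval.

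The enhancer bin also had contacts beyond 1 Mb, the longest of MEF2C among them. It met POLR3G, which encodes a subunit of RNA polymerase III, in 2 bins at 1650 kb and 1675 kb, with 31 (21.1 to 44) and 20 contacts. It met CETN3, the gene of a centrin, at 1575 kb with 15 contacts, and a bin between genes at 2520 kb with 16 (9.15 to 26.0). The only partner downstream was the start bin of TMEM161B-DT, the divergent transcript of TMEM161B, at 545 kb with 33 contacts (22.7 to 46.3). Over 1 Mb, MEF2C had 13 of its 59 interactions, 22.0%, where the list had 13.7%. MEF2A had 1 of 30 and MEF2D 4 of 10 at such distances.

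The border bin, beside its 2 contacts within the gene, had 6 partners upstream and 2 downstream. Upstream in MEF2C-AS1 the counts were 29 (19.4 to 41.6) at 520 kb, 24 at 245 kb, 21 at 420 kb, 20 at 310 kb and 14 (7.65 to 23.5) at 605 kb. At 1040 kb, between genes, it had 27. Downstream it met the noncoding gene LINC01949 at 1615 kb with 21 contacts and a second start bin of TMEM161B-DT at 415 kb with 20. No order among these counts can be read from intervals that overlap this widely.

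The promoter bin had contacts on both sides, with 6 partners upstream, 5 downstream and 2 within the gene. It also holds a transcript start of MEF2C-AS1, so its contacts cannot be assigned to MEF2C alone. Upstream, its highest count was 34 (23.5 to 47.5) with MEF2C-AS1 at 220 kb. Farther bins of MEF2C-AS1 had 25 contacts at 275 kb and 19 at 555 kb. A bin between genes at 655 kb had 27, a bin of LINC02161 at 735 kb had 23, and a bin between genes at 995 kb had 23. Downstream it met TMEM161B, which encodes a transmembrane protein, at 690 kb with 25 contacts (16.2 to 36.9), and the start of the noncoding gene LINC00461 at 235 kb with 21. The other 3 downstream partners lay in noncoding or unnamed genes, with 20 contacts at 1750 kb, 15 at 855 kb and 14 (7.65 to 23.5) at 470 kb in TMEM161B-DT.

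The bin beside the promoter had 6 partners upstream and 2 downstream besides those within the gene. It met MEF2C-AS1 with 31 contacts (21.1 to 44) at 250 kb, 18 at 395 kb, 16 at 260 kb and 15 at 445 kb. It also met LINC01339 at 1350 kb with 22 contacts and ADGRV1, an adhesion G protein-coupled receptor gene, at 1710 kb with 20. Downstream it had 22 contacts with a bin between genes at 375 kb and 13 (6.92 to 22.2) at 1855 kb, the lowest count of MEF2C. The bin with 6 interactions reached ADGRV1 as well, at 1700 kb with 29 contacts (19.4 to 41.6), and MEF2C-AS1 at 530 kb and 135 kb with 27 and 21. Its downstream partners were an unnamed gene at 950 kb with 25 contacts and the start bin of CCNH, the gene of cyclin H, at 1440 kb with 22.

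Leaving out the 4 bins themselves, the enhancer and border bins had 25 partner bins, the promoter bin and its neighbor had 22, and 1 bin, chr5:89270001-89275000 in MEF2C-AS1, was a partner of both. Of the 25, 6 lay within 10 kb of a partner of the promoter side. Most anchor bins of the list (78.0%) have 1 interaction and so a single partner, and no like count was made for other pairs of bins. Of 47 partner bins outside the gene, 43 had a single interaction in the whole list. An HLF motif occurred in 24 of the 47, beside 31.5% of all anchor bins in the list. Over both sides, partners spread over 4.33 Mb, from 87020001 to 91350000 on chromosome 5.

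A few partner bins upstream had more contacts of their own. The bin chr5:88940001-88945000, which holds a MEF2C-AS1 transcript start, had 11 interactions, and 3 were with MEF2C. These came from the 3′ and middle parts of the gene and not from the leading bins: chr5:88745001-88750000 with 40 contacts (28.6 to 54.5), chr5:88805001-88810000 with 24 and chr5:88720001-88725000 with 18 (10.7 to 28.4). The bin chr5:89265001-89270000, within MEF2C-AS1, had 6 interactions. It met the start bin chr5:88835001-88840000 with 28 contacts and chr5:88805001-88810000 with 17. In all, 24 of the 39 upstream interactions had their partner bin in MEF2C-AS1, with a bin met more than once counted each time. This gene covers partner bins as far as 555 kb from the promoter bin, and a preference for it was not tested. An HLF motif of chr5:88940001-88945000 and of chr5:89265001-89270000 is shown as above.
chr5:88940917-88940964, plus strand: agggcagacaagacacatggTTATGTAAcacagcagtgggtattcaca
chr5:89267211-89267258, plus strand: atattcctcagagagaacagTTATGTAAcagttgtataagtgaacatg

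HLF motifs were frequent along MEF2C. A motif occurred in 13 of the 16 anchor bins, where the list had the 31.5% given above. It also occurred in 23 of the 42 bins of the window (54.8%), against 30.6% of 5-kb bins of the genome. Of the 26 bins that no line of the list names, 10 held a motif, and some of the 26 lie in the range of a merged group. Of the 59 interactions, 54 (91.5%) had a motif in 1 or both bins and 28 (47.5%) in both, where the list had 66.8% and 16.2%. Many of these interactions share the enhancer bin or the promoter bin, each with 1 motif, so they are not separate observations of the motif. The G+C content of the window was 36.1% at MEF2C, 38.2% at MEF2A, 52.3% at MEF2D and 54.3% at MEF2B, and 40.9% over the genome. In the same order of genes, 54.8%, 25.7%, 7.69% and 7.14% of the window bins held a motif. The part of G+C content in the motif counts was not tested. The RefSeq promoters of the family, from 250 bases before to 50 bases after the start, held no motif in any of 12, and 1.01% of all 35116 RefSeq promoters held one.

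**Figure D3:**
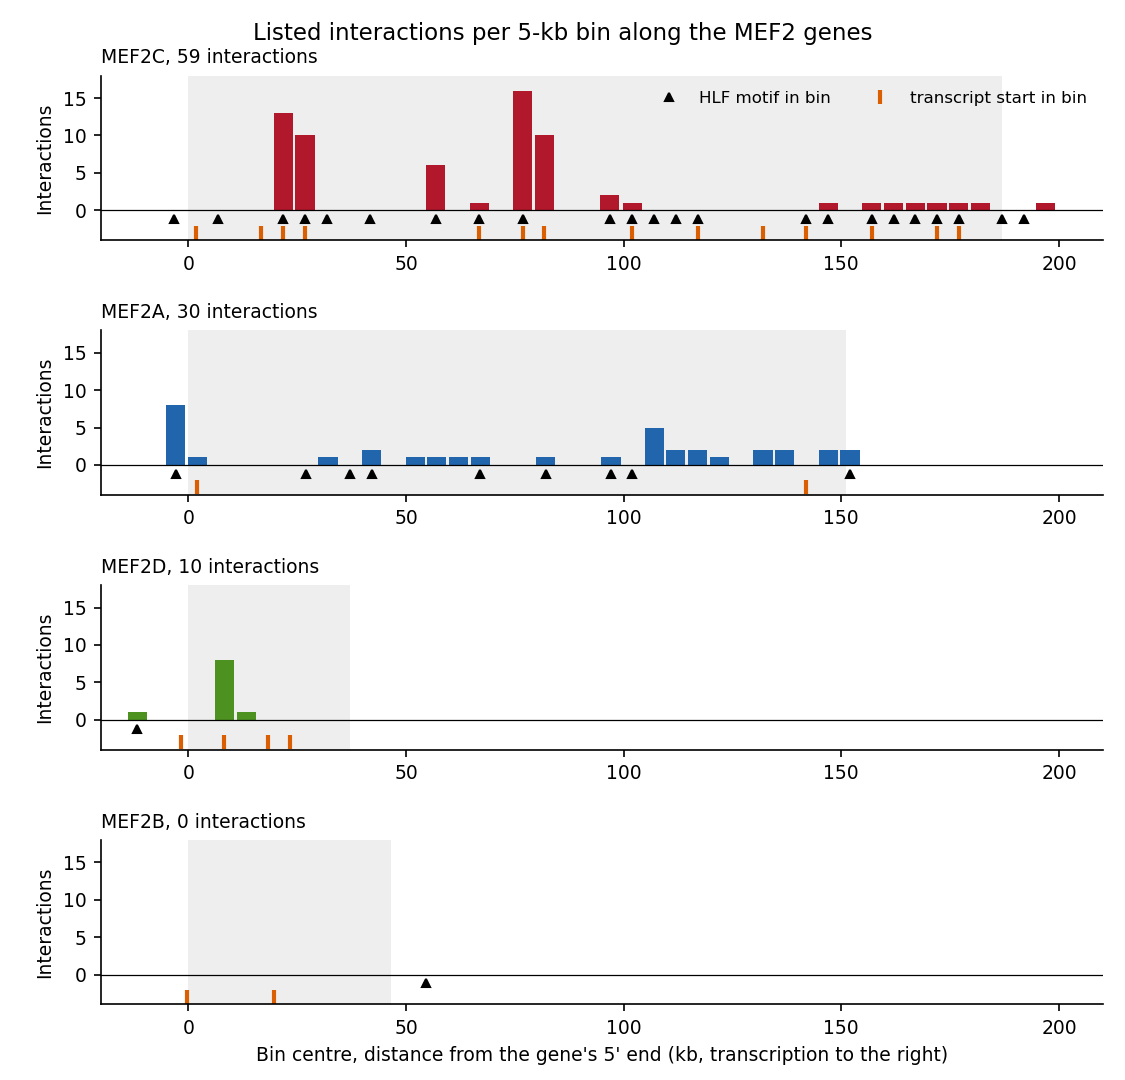
Listed interactions of each 5-kb bin along the MEF2 genes with 10 kb on each side, by distance in kb of the bin center from the 5′ end of the gene. Triangles mark bins with an HLF motif, ticks mark bins with a transcript start, and gray marks the gene body. MEF2C has 5 leading bins with 6 to 16 interactions, MEF2A has 8 in the bin before its start and 5 in its 3′ part, MEF2D has 8 in 1 bin, and MEF2B has none.

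MEF2A (ENSG00000068305.19) lies at chr15:99565417-99716488 on the plus strand and spans 151 kb. It had 30 interactions, 17.5 per 100 kb, at rank 278 of the protein-coding genes. Its contact counts ranged from 13 over a median of 22.5 to 72 and its distances from 55 kb over a median of 190 kb to 1175 kb. Partners lay upstream in 21 interactions, within the gene or its flanks in 6 and downstream in 3. The contacts were spread over more bins than at MEF2C: 18 of 35 bins of the window anchored an interaction, and 2 of them had 5 or more.

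The strongest interaction of MEF2A joined its main start bin to a bin upstream. The bin chr15:99565001-99570000, which holds the starts of 17 of 18 transcripts, met chr15:99510001-99515000, between genes and 55 kb away, with 72 contacts (56.3 to 90.7). This was 2.77 times the median of 26 at that distance and rank 22 of 1188. The 2 pairs of its merged group had a sumCC of 106. It was the only interaction listed with the start bin itself. Another merged group, that of chr15:99455001-99460000 with chr15:99560001-99565000, also covers the start bin, and 3 of its 4 pairs were significant. The upstream bin, in contrast, had 8 interactions, 7 of them with MEF2A, from 18 to 72 contacts. Its other partners lay along the gene body, with 39 contacts (27.7 to 53.3) at 120 kb, 34 at 85 kb, 33 at 95 kb, 23 at 170 kb, 22 at 110 kb and 18 at 190 kb. It holds 1 HLF motif and the start bin holds none.
Bin upstream of MEF2A, chr15:99510888-99510935, minus strand: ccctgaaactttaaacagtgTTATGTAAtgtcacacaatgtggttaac
Bin before the MEF2A start, chr15:99564920-99564967, minus strand: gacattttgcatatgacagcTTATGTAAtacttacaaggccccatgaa

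The second of these motifs lies in chr15:99560001-99565000, the bin just before the MEF2A start, and ends 53 bases from its end. That bin had 8 interactions with 13 to 33 contacts. Upstream it met LRRC28, which encodes a leucine-rich repeat protein, at its start bin 235 kb away with 33 contacts (22.7 to 46.3), and a bin between genes at 105 kb, also with 33. Downstream it met ADAMTS17, the gene of a secreted metalloprotease, at 500 kb with 29 contacts (19.4 to 41.6) and CERS3-AS1 at 815 kb with 13. In the MEF2A gene itself it had 4 partners, with 19 to 23 contacts. The 2 upstream bins together took part in 15 of the 30 MEF2A interactions, and the only interaction listed with the start bin itself is among these.

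The third place lay in the 3′ part of MEF2A, in the bin chr15:99670001-99675000, with 5 interactions of 15 to 53 contacts. It met chr15:99605001-99610000 inside the gene with 53 contacts (39.7 to 69.3) over 65 kb, 2.04 times the median and the second MEF2A interaction past 2 times. It met chr15:99615001-99620000 with 34 and a bin between genes 265 kb away with 35 (24.4 to 48.7). At 1175 kb it reached the pseudogene FAM169BP with 21. The bin holds no HLF motif. A bin further along, chr15:99695001-99700000, had 34 contacts (23.5 to 47.5) with chr15:99495001-99500000 upstream.

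In MEF2A, 25 of 30 interactions (83.3%) had an HLF motif in 1 or both bins and 5 (16.7%) in both. Of the anchor bins, 6 of 18 held a motif, as did 9 of 35 bins of the window (25.7%). These shares of bins were near those of the list and of the genome, while the share of interactions with any motif was above the 66.8% of the list. The 2 bins upstream of the start, each with a motif, took part in 15 of the 25.

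MEF2D (ENSG00000116604.19) lies at chr1:156463727-156500779 on the minus strand and spans 37.1 kb. Since the caller listed pairs from 50 kb upward, contacts between bins inside MEF2D could not be listed. It had 10 interactions, which is also 17.5 per 100 kb, at rank 1765 by number. The contact counts ranged from 13 over a median of 20 to 34. No interaction exceeded 2 times the median of its distance, and 4 were above the median.

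Contacts of MEF2D met in 1 bin. The bin chr1:156490001-156495000, which holds the RefSeq start of MEF2D and 1 GENCODE transcript start, had 8 of the 10 interactions. The bin with 3 GENCODE starts, chr1:156500001-156505000, had none. The leading bin met IQGAP3, a scaffold protein gene, with 34 contacts (23.5 to 47.5) at 70 kb and with 20 at its start bin 80 kb away. It met the start bin of GPATCH4 at 110 kb with 28 contacts (18.6 to 40.5). KCNN3, a potassium channel gene, was reached at 1685 kb with 28 (18.6 to 40.5). Partners with lower counts were NES, the gene of nestin, with 18 contacts at 175 kb, and FCRL2, an Fc receptor-like gene of B cells, with 14 at 1265 kb. The start bin of MUC1 had 13 at 1305 kb. These 3 have intervals that run from 6.92 to 28.4, and their order cannot be told.

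The other 2 interactions of MEF2D did not use that bin. The bin chr1:156485001-156490000 had 29 contacts (19.4 to 41.6) with chr1:153495001-153500000 at 2990 kb, at the upper limit of the caller. The median at that distance was 18, from only 5 listed interactions with this one included. The bin chr1:156510001-156515000, in the flank of the gene, had 20 contacts with IQGAP3. An HLF motif occurred in 1 or both bins of 2 of the 10 interactions and in both of 0. The leading bin held none, and 1 of the 13 bins in the window held one. MEF2D and MEF2A thus had the same number of interactions per 100 kb, with a motif in few and in most of them, respectively.

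MEF2B (ENSG00000213999.17), at chr19:19145567-19192131 on the minus strand, had no listed interaction. The nearest anchor bin of the list, which starts at 19255001, was 62.9 kb from the gene. With 46.6 kb the gene is also too short for listed contacts within itself. In 2 bins it has 5 transcript starts, and 1 of the 14 bins in its window held an HLF motif. Absence from the list says that no pair was called at the q-value of 0.01, not that MEF2B has no contacts. The contact counts of pairs outside the list were not analysed here. The calling used MACS2 peaks as reference, and peaks at MEF2B were not looked up. Of all protein-coding genes, 35.5% had no listed interaction.

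**Figure D4:**
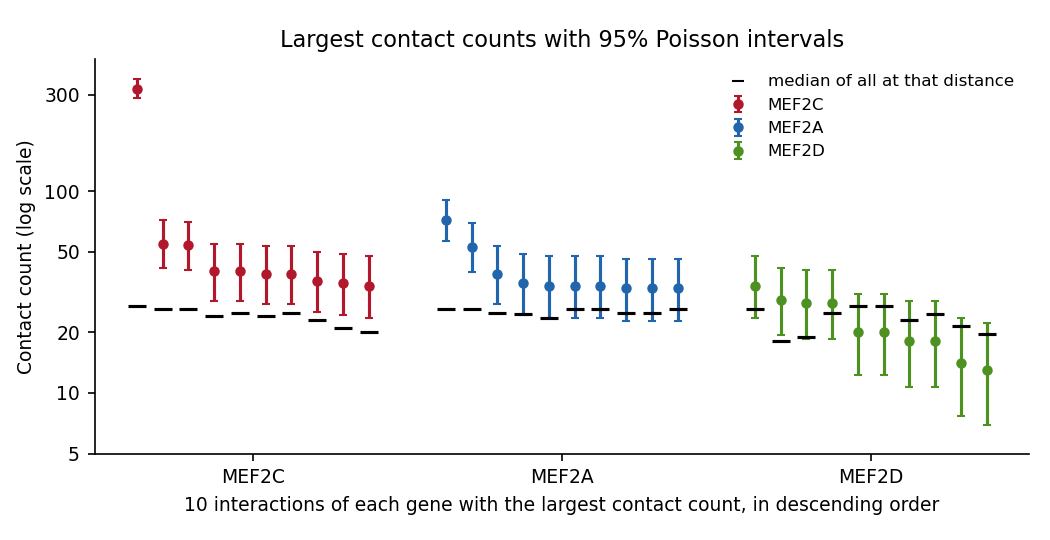
Contact counts (log scale) of the 10 interactions of MEF2C, MEF2A and MEF2D with the largest counts, in descending order. Bars are exact Poisson 95% intervals and black dashes the median of all listed interactions at the same distance. After the first MEF2C interaction (322) and the first MEF2A interaction (72), the intervals within each of these genes overlap, and at MEF2D the first (34) and the last (13) do not. The first MEF2A interval (56.3 to 90.7) also overlaps the second (39.7 to 69.3).

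Set side by side, the first interaction of each gene had 322, 72 and 34 contacts at MEF2C, MEF2A and MEF2D, over 60 kb, 55 kb and 70 kb. The intervals of these 3 counts do not overlap. At these distances the medians of the list were 27, 26 and 26, so distance differs little between them. The next listed counts were 55, 53 and 29. At MEF2C this leaves out the other 10 significant pairs merged with the first interaction, with 83.2 contacts each on average. Over all interactions of each gene, the medians of the contact counts were 23, 22.5 and 20, and the median ratios to the median of the distance were 1.0, 0.903 and 0.762. Interactions of more than 1 bin pair made up 8 of 59 at MEF2C, 4 of 30 at MEF2A and 1 of 10 at MEF2D (13.6%, 13.3% and 10.0%), and 7.69% of the list.

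Genes that work with MEF2 were looked up as well. Of 20 genes of cofactors and regulators, 19 had an interaction, with a median of 10.5 interactions per gene, where 64.5% of protein-coding genes had any and the median was 1. Several of these genes are long, and the counts were not corrected for length. CREBBP, a histone acetyltransferase, had 22 interactions and the highest count, 67 contacts (51.9 to 85.1) over 140 kb. SIK3, a kinase of class IIa deacetylases, had 13 interactions with up to 54 contacts (40.6 to 70.5) at 1230 kb. MAP2K5, the kinase upstream of MAPK7, had 67 interactions, more than MEF2C, with up to 52 contacts (38.8 to 68.2). HDAC7 and HDAC4, deacetylases that bind MEF2, had 15 and 52 interactions with up to 47 and 45 contacts. SIK1 had none.

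Of 16 target and partner genes, 12 had an interaction (75.0%), with a median of 1.5 per gene. BCL9, a fusion partner of MEF2D in ALL, had 14 interactions with up to 57 contacts (43.2 to 73.9). IRF8, a transcription factor of B cells and myeloid cells, had 7 with up to 51 (38 to 67.1). NR4A1, a MEF2 target induced in lymphocytes, had 8 with up to 37 (26.1 to 51.0), and SMAD2, a transducer of TGF-β signals, had 2 with the same top count. GATA4, a cardiac transcription factor that binds MEF2 proteins, had 14 with up to 39 (27.7 to 53.3). KLF2, KLF4, HNRNPUL1 and NOTCH1 had none. The share of this list was near that of all protein-coding genes. No gene of either list reached the 72 contacts of MEF2A or the 322 of MEF2C.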

How the data were processed

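The processed data are a single list of TCF3::HLF-HiChIP interactions. Per the study's methods, the authors trimmed the reads (Trim Galore 0.6.6), merged the 2 replicates, aligned them to hg38 with BWA-MEM, extracted pairs with pairtools without the dedup step, called peaks with MACS2, and ran FitHiChIP at a q-value below 0.01 on pairs of 5-kb bins (50 kb apart at least, 3 Mb at most), then merged nearby contacts. The FitHiChIP version is not given in the sources used here. The contact counts and their sums over merged groups (sumCC) were deposited as raw counts, without normalization. The p-value and q-value deposited by the authors come from the background for distance and coverage. The deposited fraction tells how much of a merged group was significant on its own.

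Bins were checked against the hg38 reference, with 0 past a chromosome end. The listed contact counts sum to 1268490, and the depth of each replicate cannot be told from the list. From the list, interactions per gene and per bin, ranks, exact Poisson 95% intervals and ratios to the median contact count at the same distance were computed (Python 3.11.15, pandas 2.3.3, scipy 1.17.1 and pysam 0.24.0). Because duplicates were kept, these intervals are a lower limit of the error. Counts per bin use the bin pair of each line, so other bins in the range of a merged group are not counted. Gene counting and the motif search were tested on simulated data. The 4 genes, the lists of cofactors and targets and the motif were chosen with earlier results of these data known.

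Named interactions are the 10 of each gene with the largest contact count, those of MEF2C transcript start bins and of the bin at the enhancer guides, the 5 MEF2C bins with most interactions, and at most 5 genes of each list by contact count. The 2 partner bins of MEF2C-AS1 described on their own and the further interactions of the 3 leading MEF2A bins, outside its 10 largest, were chosen after their values were seen. Partner bins are named by the genes whose transcript starts they hold, otherwise by the genes they overlap. Guides were matched to the reference on both strands. Protein sequences were not used here. A partner of MEF2D and a motif sequence are not reported here. Alternatives were other gene windows, stricter q-values and contact counts, shorter distances, merged bin ranges, other distance baselines and a relaxed motif.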

Additional observations from a re-analysis of the deposited data

How the results depend on the processing

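Of 40 alternatives to the counts and the ratio, 32 stayed within 1.5 times the reported value. Some of the 32 had little or no room to move. Those of MEF2B started from 0, and the relaxed motif and widened bins could raise 13 anchor bins only to 16. A q-value below 1e-05, which keeps 66.5% of the list, left 39 interactions of MEF2C, 18 of MEF2A and 5 of MEF2D. A contact count of at least 20, which keeps 69.1% of the list, left 19 of MEF2A and 6 of MEF2D, and distances up to 1 Mb also left 6 of MEF2D. The order of the genes was the same in each. MEF2B had 0 interactions under every alternative run, including 50 kb on each side of the gene. Stricter settings could only leave 0, and that window does not reach the nearest anchor bin, 62.9 kb away. The strongest MEF2C interaction was 10.6 to 12.4 times the baselines of single bin pairs, and 41.2 times the median if sumCC replaces the contact count, since sumCC adds up a merged group. With the gene body alone, 7 of 16 target and partner genes had an interaction in place of 12. Of 20 cofactor and regulator genes, 16 had one in place of 19. The share of all protein-coding genes was not computed for that window, so these counts have no background. The relaxed motif and bins widened by 1 bin on each side each gave a motif to 16 of 16 MEF2C anchor bins, where 92.3% and 63.5% of all anchor bins had one.

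No paired analysis was possible because the replicates were merged before calling, and for the same reason no replicate could be left out. The list starts at 50 kb, so nearer contacts of the MEF2C enhancer and all contacts within MEF2B and MEF2D are outside it. Duplicate read pairs were kept, and counts of 13 to 40 have intervals too wide to order most partners.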

Other observations

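Some listed interactions spanned a MEF2 gene without touching it or its flanks. There were 11 over MEF2A, 5 over MEF2D, 4 over MEF2C and 0 over MEF2B. MEF2A thus had the most spanning contacts of the family, although MEF2C had about 2 times as many of its own. A spanning pair has to be longer than the gene with its flanks. These measure 207 kb at MEF2C, 171 kb at MEF2A, 66.6 kb at MEF2B and 57.1 kb at MEF2D. No like count was made for other genes.

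In MEF2C and MEF2D, the bin of the outermost annotated transcript start had no listed interaction. In MEF2A that bin had 1, and a further merged group covers it. The bin with the most interactions was centered 8.28 kb from the 5′ end in MEF2D (8 of 10) and 76.8 kb from it in MEF2C (16 of 59), where the promoter bin lay at 21.8 kb. In MEF2A, the bin before the start had 8 of the 30 interactions.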
